A study of Rattus norvegicus with 16 samples.

Results

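The CA1 and CA3 fields of rat hippocampal slice cultures were compared at 3 h on 4 of the study's 16 expression arrays. These were the 2 arrays labelled CA1 at T3h and the 2 labelled CA3 at T3h, taken by their labels alone and paired by the replicate number in their titles. The study followed both fields through 4 time points (T0, T30m, T3h and T12h) under oxidative stress, with 2 biological replicates at each. An organotypic slice culture is a slice of brain kept alive in a dish with its layers in place. The sources used here do not give the agent and its dose, what T0 stands for, or the strain, age and any genotype of the rats. The labels name no treatment that differs between the 2 fields, so time and field are the only labelled differences. Each of the 8 groups holds 2 arrays. The labels call the replicates biological but do not say that they came from separate animals. The p-values therefore measure only the spread between these samples, which may not be the spread between animals.

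CA3 and CA1 are successive stations of the hippocampal circuit. CA3 pyramidal neurons receive mossy fibres from the dentate gyrus and send their Schaffer collaterals to CA1 pyramidal neurons. CA1 neurons are known for dying after oxidative and ischaemic injury that most CA3 neurons survive. A field cut from a slice also contains interneurons, astrocytes, microglia, oligodendrocytes and vessel cells, so its RNA is a mixture of all of these. A lower level in such bulk RNA may come from fewer cells of a type or from less RNA per cell, and these cannot be told apart here.

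Each array gave 15866 probe sets that could be tested, which stood for 10411 named genes. All values are log2 expression values, on which a difference of 1 is a change by a factor of 2, and all differences are CA1 minus CA3. Arrays of one replicate number resembled each other more than arrays of one field. Over all probe sets the 2 fields correlated at r = 0.963 in replicate 1 and 0.978 in replicate 2, against 0.911 between the CA1 arrays and 0.930 between the CA3 arrays. The difference between the GAPDH control probes of the 3' and 5' ends, a measure of how far the labelled RNA was shortened, was 1.98 in CA1 and 1.63 in CA3 of replicate 1, and 3.93 in both fields of replicate 2. It moved with the replicate more than with the field. With its field difference as a covariate of the limma fit 0 probe sets passed and 814 had an unadjusted p under 0.05. Some of the gene differences given further on became smaller with this covariate, and others became larger.

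No gene passed the test at 3 h. In limma's moderated test of the pair differences, 0 of 15866 probe sets had an adjusted p under 0.05, the smallest adjusted p was 0.84, and 885 probe sets (5.58%) had an unadjusted p under 0.05. The 2 pairs shared little: over the 10411 genes their differences correlated at -0.08, against 0.20 at T0, 0.18 at 30 min and 0.11 at 12 h, and only 43.2% of genes had the same sign in both. This correlation is across genes, which are not independent replicates. CA1 was higher in both pairs for 2333 genes (22.4%) and lower in both for 2167 (20.8%), and the signs were opposite for 5911 (56.8%). Among the 6148 genes above the median level the shares were 25.4% and 20.1%. Both CA1 arrays lay above both CA3 arrays for 1032 genes (9.91%) and below them for 973 (9.35%). The differences of replicate 1 were the wider, with an SD over genes of 0.537 against 0.393. A fit on the 2 pairs of 3 h alone, which has 1 residual degree of freedom and gave every probe set one common variance, passed 68 probe sets, 13 higher and 55 lower in CA1. All statements that follow describe the sizes and signs of differences in these 4 arrays, none of which passed the test over all times.

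**Figure D1:**
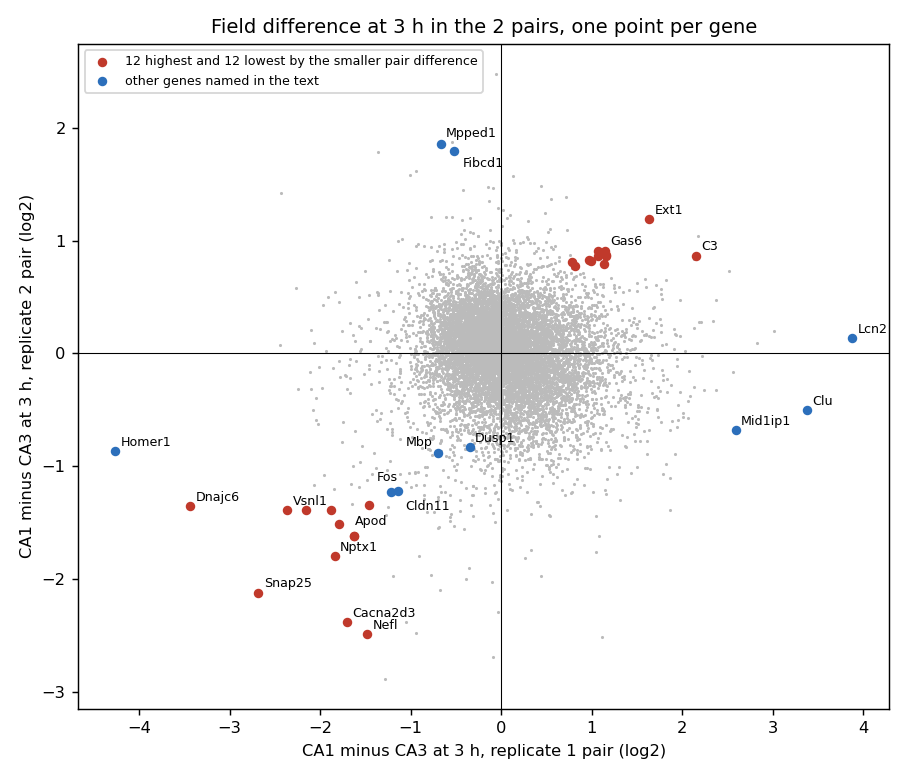
Each point is a gene, with its CA1 minus CA3 difference at 3 h in the replicate 1 pair on the horizontal axis and in the replicate 2 pair on the vertical axis (both log2). The cloud shows no common slope (r = -0.08), Snap25 lies at -2.68 and -2.12 among the genes lower in CA1 in both pairs, and Lcn2 and Clu lie far to the right in replicate 1 alone.

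More genes had large differences of one sign on the lower side of CA1 than on the higher side. In both pairs 32 genes (0.307%) were lower in CA1 by more than 1 log2 unit, and only 2 (0.0192%), Ext1 and Xdh, were higher by as much. Of the 32 genes 5 belonged to the list of synaptic vesicle and growth cone genes, 4 to that of calcium buffers and sensors and 2 to that of myelin genes, and 13 to none of the lists. Xdh, the purine-degrading enzyme xanthine oxidoreductase, which can release superoxide, had low levels of 6.75 and 6.07 in CA1 against 4.58 and 5.03 in CA3 (1.61 ± 0.44, limma adjusted p = 0.845), without overlap, and was chosen after its values were seen. Snap25, a membrane fusion protein of the presynaptic terminal, had log2 levels of 5.06 and 7.91 in the CA1 arrays of replicates 1 and 2 and of 7.74 and 10.03 in the CA3 arrays. CA1 was thus the lower field in each pair, yet replicate 2 of CA1 lay above replicate 1 of CA3, so the groups overlapped. The mean difference of the 2 pairs was -2.40 ± 0.49 (limma adjusted p = 0.84). Here and below the error after ± is a moderated SE. Its spread was estimated from all 8 pairs of the time course, not from the 2 pairs of 3 h alone.

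The other 11 genes with the largest lower level in both pairs included genes of axons, vesicles, channels and glia. Nefl, the light neurofilament subunit of axons, had levels of 4.92 and 6.73 in CA1 and 6.40 and 9.22 in CA3, a mean difference of -1.99 ± 0.44. Dnajc6, auxilin, which strips clathrin from recycled vesicles, had 4.81 and 8.39 in CA1 against 8.24 and 9.74 in CA3 (-2.40 ± 0.64). Cacna2d3, an auxiliary subunit of voltage-gated calcium channels, had 5.20 and 5.75 in CA1 against 6.91 and 8.14 in CA3 (-2.05 ± 0.69). It was 1 of 2 among these 12 genes whose CA1 and CA3 arrays did not overlap. Over all genes 9.35% had both CA1 arrays below both CA3 arrays. The 12 were chosen for like-signed differences, so nothing can be read from this count. Nptx1, a pentraxin secreted at excitatory synapses, had pair differences of -1.84 and -1.80, among the most even of the group. Vsnl1, a neuronal calcium sensor, had -2.36 and -1.39, and the granule protein gene Chgb had -1.79 and -1.52. Nnat, an imprinted membrane protein of neurons and endocrine cells, differed by -1.63 and -1.62. Rab6b, a Golgi transport GTPase, differed by -1.63 ± 0.58 on average, Gabbr2, a subunit of the metabotropic GABA receptor, by -1.63 ± 0.31, and Chn1, a Rac regulator of axon growth, by -1.77 ± 0.66. Apod, a lipid carrier of glia and meninges rather than neurons, had 6.30 and 5.31 in CA1 against 7.76 and 6.66 in CA3 (-1.40 ± 0.49). The limma adjusted p-values of these 12 genes lay between 0.84 and 0.845. Second probe sets, dimmer than the ones used, gave 0.03 for Gabbr2, -0.04 for Vsnl1, -0.52 for Nefl and -0.63 for Dnajc6, so the sizes for these 4 genes rest on 1 probe set each.

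**Figure D2:**
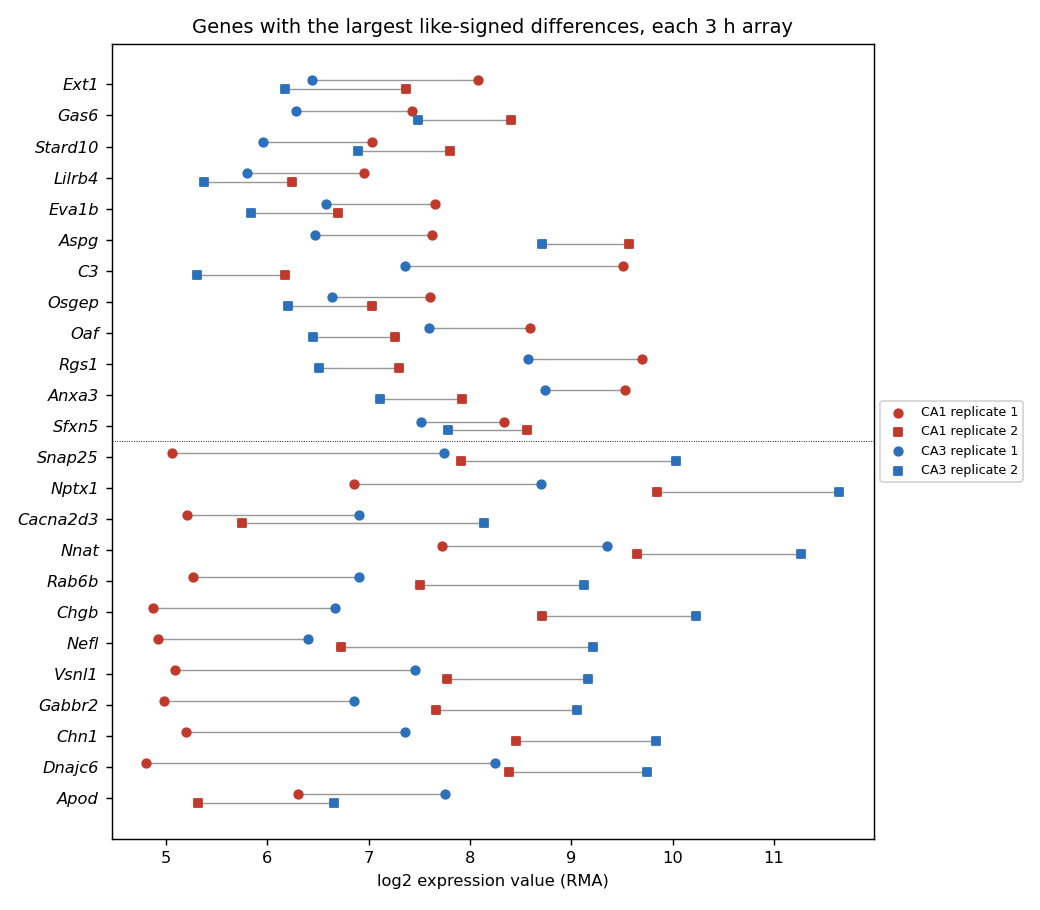
Log2 levels of the 12 genes higher and the 12 genes lower in CA1 in both 3 h pairs, with one point for each of the 4 arrays and a line joining the fields of one replicate. Within each pair the fields are ordered alike, since only genes with one sign in both pairs were chosen. The levels of neuronal genes such as Snap25 also differ widely between replicates (5.06 and 7.91 in CA1).

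Genes of synaptic vesicles and growth cones as a list showed the same side. Of 30 measured members 25 were lower in CA1 in both pairs and 0 higher in both, against 20.8% and 22.4% of all genes, and their median difference was -0.74 (-0.71 in replicate 1 and -0.43 in replicate 2) beside 0.01 for all genes. Gap43, a growth cone phosphoprotein, had 7.53 and 7.83 in CA1 against 8.91 and 8.85 in CA3 without overlap (-1.20 ± 0.28). Cplx2, which clamps vesicle fusion, had 4.97 and 7.05 against 6.24 and 8.48 (-1.35 ± 0.26). Syp, the vesicle protein synaptophysin, differed by -0.75 in each pair, and the vesicle SNARE gene Vamp2 by -0.77 and -0.76. In 5 of the 30 members both CA1 arrays lay below both CA3 arrays, where 9.35% of all genes did. No member passed the test.

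The level of these genes varied across the arrays by more than it did between fields. Their mean log2 level was 5.91 in CA1 and 6.73 in CA3 of replicate 1, and 7.45 and 8.09 in replicate 2. The CA1 array of replicate 1 at 3 h had the lowest such level of all 16 arrays. The lower side of CA1 was also not limited to 3 h: the median difference was -1.20 and -0.25 in the T0 pairs, 0.40 and -0.48 at 30 min, and -0.22 and -0.50 at 12 h. Snap25 was lower in CA1 in 7 of 8 pairs, the exception being the replicate 1 pair of 30 min at 1.85. Against the mean of the other 3 times no gene's 3 h difference passed the test, as given further on.

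Genes of excitatory neurons in general had the same direction at smaller sizes. Of 10 measured members 8 were lower in both pairs and 0 higher, against 20.8% and 22.4% of all genes, with a median of -0.36. Camk2a, the main calcium-dependent kinase of excitatory synapses, had 4.87 and 7.08 in CA1 against 5.81 and 8.25 in CA3 (-1.06 ± 0.22). Its dimmer probe sets had opposite signs in the pairs, with -0.56 and 0.31 for one and -0.50 and 0.16 for the other. Slc17a7, the vesicular glutamate transporter of pyramidal cells, differed by -0.67 and -0.77. The AMPA receptor subunit gene Gria2 differed by only -0.18 and -0.19. The genes thus did not share one ratio between the fields. Inhibitory neuron genes were lower in both pairs for 4 of 9 measured members and higher in both for 1. Their median was -0.22, with -0.44 in replicate 1 and -0.006 in replicate 2. Reln, the matrix protein reelin of some interneurons, had 6.75 and 7.59 in CA1 against 7.96 and 8.29 in CA3 (-0.95 ± 0.23), without overlap, while the GABA-synthesising enzyme gene Gad1 differed by -0.22 and -0.17.

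Calcium buffers, sensors and transporters were lower in both pairs for 16 of 35 measured members and higher in both for 6. These were 45.7% and 17.1% of members, against 20.8% and 22.4% of all genes, with a list median of -0.26. Pcp4, a calmodulin regulator that marks CA2, had 7.57 and 8.19 in CA1 against 8.99 and 9.26 in CA3, without overlap (-1.24 ± 0.26, limma adjusted p = 0.84). It was lower in CA1 in all 8 pairs of the time course, and was among the genes named for their difference over all times. Hpca, hippocalcin, differed by -1.20 and -1.98, and Slc8a1, the sodium-calcium exchanger, had 6.31 and 6.41 in CA1 against 7.13 and 7.82 in CA3 (-1.11 ± 0.34). Calb1, the buffer calbindin, had opposite signs at 1.87 and -1.10. Of the potassium channel genes 12 of 42 were lower in both pairs and 2 higher. Of the sodium and calcium channel genes these were 5 of 20 and 1, and of the neuropeptide genes 7 of 19 and 1. The lower shares were 28.6%, 25% and 36.8%, beside 20.8% of all genes. The median differences of these lists were -0.10, -0.19 and -0.20. In replicates 1 and 2 the potassium channel medians were -0.34 and 0.08 and the sodium and calcium channel medians -0.28 and 0.03. Those of the neuropeptide genes were -0.27 and -0.07.

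Most myelin genes lay lower in CA1. Of 15 measured members 12 were lower in both pairs, 0 were higher in both, and 10 had both CA1 arrays below both CA3 arrays, where 9.35% of all genes did. The median difference was -0.56, with -0.75 in replicate 1 and -0.36 in replicate 2. Cldn11, the tight junction protein of myelin, had 10.54 and 10.45 in CA1 and 11.68 and 11.67 in CA3, so the replicates differed by far less than the fields. Its pair differences were -1.14 and -1.23 (-1.18 ± 0.28, limma adjusted p = 0.84). Mbp, myelin basic protein, had 10.85 and 10.55 against 11.55 and 11.43 (-0.79 ± 0.30), and Mag, the myelin-associated glycoprotein, 6.50 and 6.86 against 7.24 and 7.26 (-0.57 ± 0.22). Dimmer probe sets had pair differences of -0.41 and 0.12 for Cldn11 and of -0.91 and 0.08 for Mbp. Tspan2, a tetraspanin of oligodendrocytes, had 7.76 and 6.97 in CA1 against 8.87 and 8.04 in CA3 (-1.09 ± 0.25). Enpp6, an oligodendrocyte phosphodiesterase, differed by -1.38 and -0.50, Pllp, plasmolipin, by -1.14 and -0.49, and Cnp, the cyclic nucleotide phosphodiesterase of myelin, by -0.81 and -0.41. Of the 15 measured members 8 were lower in CA1 in all 8 pairs, these 7 among them, and 122 of all 10411 genes (1.17%) were. Some of the 7 were named for their difference over all times, so this is a description. The median of the list at the other times was -0.38 and -0.25 at T0, -1.01 and -0.85 at 30 min, and -0.90 and -0.82 at 12 h. Genes of oligodendrocyte precursors, 5 of them measured, had a median of 0.03.

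**Figure D3:**
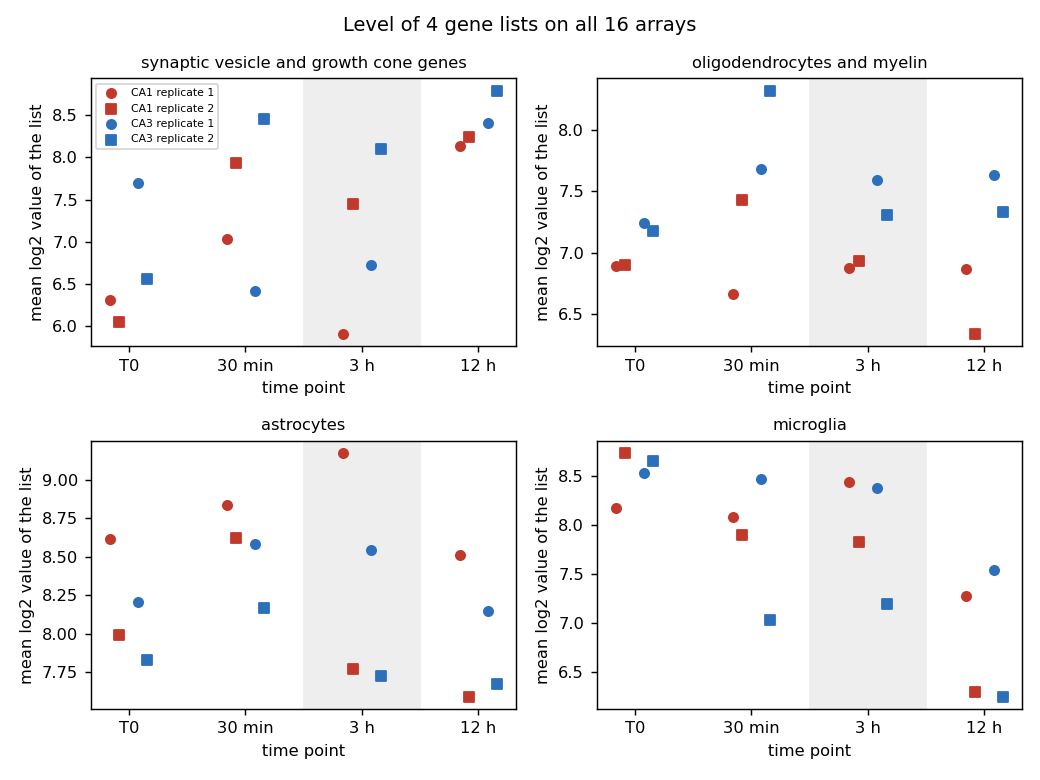
Mean log2 value of 4 gene lists on each of the 16 arrays, by time point, with CA1 in red, CA3 in blue, replicate 1 as circles, replicate 2 as squares and 3 h shaded. The synaptic list is lowest on the CA1 array of replicate 1 (5.91), the astrocyte list is highest there (9.17), and the myelin list lies lower in CA1 than in CA3 in both pairs (6.88 against 7.59 and 6.93 against 7.31).

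Astrocyte genes lay on the other side, mainly in replicate 1. Of 17 measured members 8 were higher in CA1 in both pairs and 0 lower in both, against 22.4% and 20.8% of all genes. The median of 0.35 split into 0.50 in replicate 1 and 0.08 in replicate 2. This side was not limited to 3 h. In replicates 1 and 2 the list median was 0.37 and 0.18 at T0, 0.15 and 0.52 at 30 min, and 0.27 and 0.02 at 12 h. Fxyd1, phospholemman, a regulator of the sodium pump, had 9.15 and 7.51 in CA1 against 8.24 and 6.95 in CA3 (0.74 ± 0.20). It was higher in CA1 in all 8 pairs, as 163 of all genes (1.57%) were. Fxyd1 was among the genes named for their difference over all times, so this is a description. Gfap, the astrocyte intermediate filament, had 13.21 and 12.29 against 12.39 and 12.05 (0.53 ± 0.23). Ntsr2, a neurotensin receptor of astrocytes, differed by 2.34 and 0.29, and Slc1a3, a glial glutamate transporter, by 1.14 and 0.19. The water channel gene Aqp4 went the opposite way in the pairs, 0.40 and -1.32. The mean level of the list was 9.17 on the CA1 array of replicate 1, the highest of the 16 arrays, against 8.54 on its CA3 array, and 7.77 and 7.72 in replicate 2. The same CA1 array thus had the highest astrocyte and the lowest synaptic level of the series. Its share in each difference was not tested.

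Genes of microglia were higher in CA1 in both pairs for 7 of 17 measured members and lower in both for 0. Over all genes these shares were 22.4% and 20.8%. The list had a median of 0.38. The median was 0.65 in replicate 2 and -0.11 in replicate 1. The same split by replicate stood at the other times. In replicates 1 and 2 the median was -0.34 and 0.10 at T0, -0.40 and 0.90 at 30 min, and -0.21 and 0.20 at 12 h. C1qb, a chain of the complement starter C1q, differed by 0.55 and 0.94 (0.75 ± 0.36), and Fcgr3a, an immunoglobulin receptor, by 0.39 and 0.90. Csf1r, the growth factor receptor of microglia, had opposite signs, -0.31 and 1.06. Cd14, a co-receptor for bacterial lipopolysaccharide, had 10.41 and 6.97 in CA1 against 8.70 and 6.70 in CA3 and was higher in all 8 pairs. In none of the 17 did both CA1 arrays lie above both CA3 arrays, where 9.91% of all genes did. Vessel genes (median 0.05 over 14), fibroblast genes (-0.24 over 14) and ependymal genes (0.07 over 10) were near the median of all genes or had pairs of opposite sign: the fibroblast median was -0.80 in replicate 1 and 0.11 in replicate 2.

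**Figure D4:**
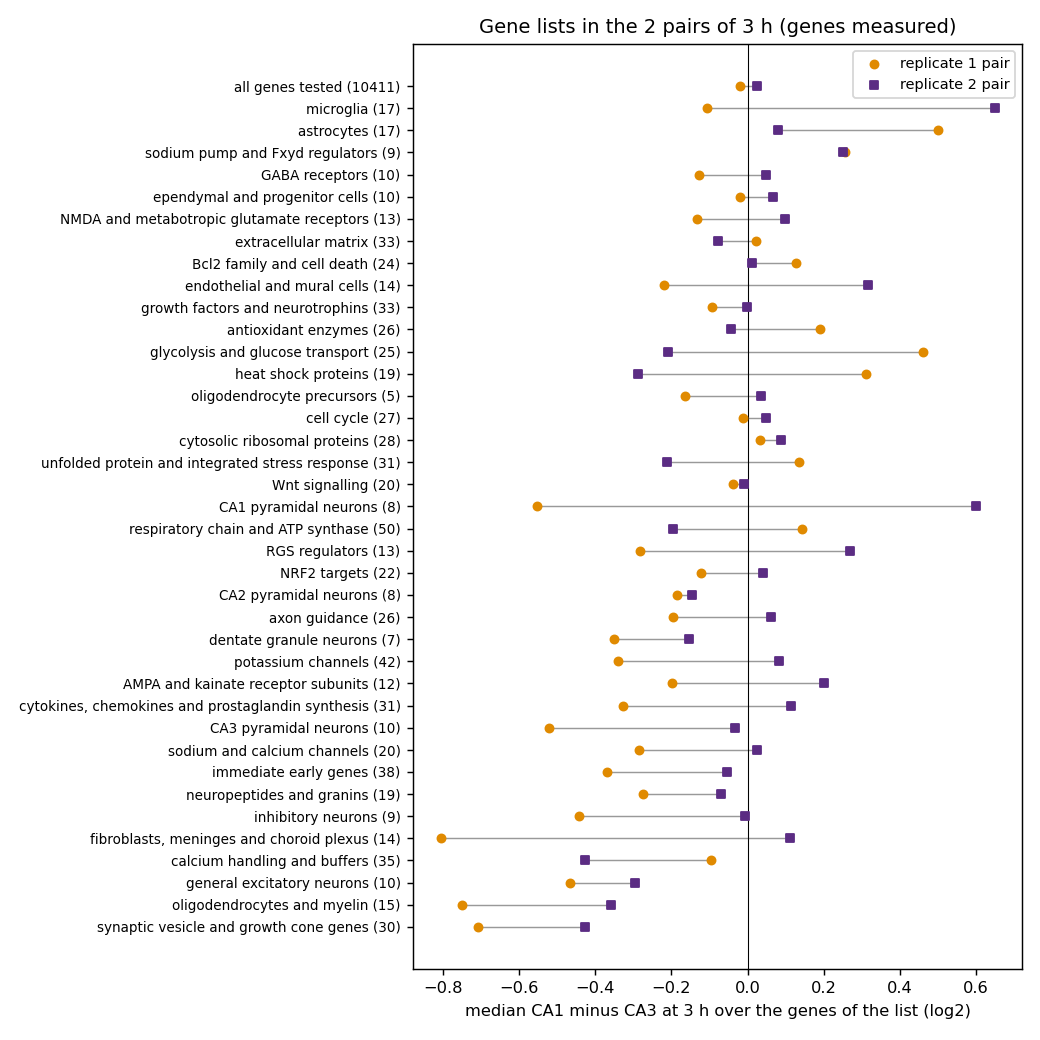
Median CA1 minus CA3 difference at 3 h (log2) of each gene list, in the replicate 1 pair (circles) and the replicate 2 pair (squares), with the number of measured genes in brackets. Synaptic (-0.71 and -0.43) and myelin (-0.75 and -0.36) lists lie below 0 in both pairs, the astrocyte list above it (0.50 and 0.08), and the CA1 pyramidal list splits (-0.55 and 0.60).

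The 12 genes with the largest agreed higher level in CA1 were of mixed function. Ext1, a polymerase of heparan sulphate chains, had 8.08 and 7.37 in CA1 against 6.44 and 6.18 in CA3, without overlap, and the smallest p-value of these genes (1.41 ± 0.23, limma adjusted p = 0.84). Gas6, the ligand of the TAM receptors by which phagocytes take up dying cells, had 7.43 and 8.40 against 6.28 and 7.49 (1.03 ± 0.31). C3, the central component of complement, had 9.51 and 6.17 against 7.36 and 5.30, a difference of 2.15 in replicate 1 and 0.87 in replicate 2, and its mean of 1.51 became 0.85 with the GAPDH covariate. Lilrb4, an inhibitory receptor of myeloid cells, had 6.96 and 6.25 against 5.80 and 5.38. Its mean over all 16 arrays, 5.82, was below the level limit of 5.93 set for naming, which it passed only through the CA1 arrays of 3 h. Rgs1, a regulator of G proteins in immune cells, had 9.70 and 7.30 against 8.57 and 6.51 (0.96 ± 0.44). Stard10, a phospholipid transfer protein, had 7.03 and 7.80 against 5.95 and 6.89 (0.99 ± 0.30), and Aspg, an asparaginase, 7.62 and 9.57 against 6.47 and 8.71 (1.01 ± 0.26). The remaining 5 were Eva1b, Osgep, a tRNA-modifying enzyme, Oaf, Anxa3, an annexin, and Sfxn5, a mitochondrial carrier of the sideroflexin family, with mean differences of 0.80 to 0.97. The difference of Anxa3 became 0.35 with the GAPDH covariate, and its 2 dimmer probe sets gave 0.20 and 0.23. Those of Gas6 and Stard10 gave 0.27 and -0.13. In 6 of the 12 the arrays did not overlap, beside 9.91% of all genes, and from genes chosen for like-signed differences nothing can be read from this. The limma adjusted p-values of the 12 lay between 0.84 and 0.908. The rule ranked genes by the smaller pair difference, and its edges fell between Sfxn5 (0.774) and Itih3 (0.731) for higher genes and between Apod (-1.347) and Nefm (-1.341) for lower ones.

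A second set of genes stood out in replicate 1 alone. Clu, clusterin, a secreted chaperone of reactive astrocytes, had levels of 12.61 in CA1 and 9.24 in CA3 of replicate 1 but 7.84 and 8.35 in replicate 2, so its pair differences were 3.38 and -0.51. Mid1ip1, a regulator of lipid synthesis, differed by 2.59 and -0.68. Its partner Thrsp had 7.98 and 4.76 in CA1 against 5.41 and 4.93 in CA3. Dimmer probe sets differed in replicate 1 by 0.34 for Clu and by -0.33 and 0.15 for Thrsp. The sizes for Clu and Thrsp thus rest on 1 probe set each. Il6, the inflammatory cytokine, had 6.30 on the CA3 array of replicate 1 and between 3.54 and 3.86 on the other 3 arrays. Lcn2, lipocalin 2, an iron-siderophore binder of reactive astrocytes, was chosen after its values were seen, with 12.26 and 7.61 in CA1 against 8.38 and 7.48 in CA3. Its difference was 3.88 in replicate 1 and 0.13 in replicate 2 (2.01 ± 0.83), although it was higher in CA1 in all 8 pairs. Cp, the copper oxidase ceruloplasmin, chosen likewise, differed by 2.83 and 0.09. Dimmer probe sets of Cp differed in replicate 1 by 2.30 and 1.77. Differences past 1 log2 unit in either direction numbered 641 (6.16%) in replicate 1 and 212 (2.04%) in replicate 2.

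The labels were checked against the markers of the 2 fields, and at 3 h the CA1 markers did not separate them. Of 8 measured CA1 pyramidal genes 1 was higher in both pairs and 1 lower in both, and their median was -0.55 in replicate 1 and 0.60 in replicate 2. Wfs1, wolframin, a membrane protein of the endoplasmic reticulum enriched in CA1 pyramidal cells, had 6.27 and 6.56 in CA1 against 5.96 and 6.09 in CA3, without overlap (0.39 ± 0.27, limma adjusted p = 0.941), and was higher in CA1 in all 8 pairs. Fibcd1, a membrane lectin of CA1, had 4.63 in CA1 and 5.16 in CA3 of replicate 1, and 6.93 and 5.14 in replicate 2. Mpped1, a phosphodiesterase-like gene of CA1, had 4.19 and 4.85, then 7.52 and 5.67. The replicate 1 array of CA1 thus had low levels of both genes, while replicate 2 showed them higher in CA1 by 1.80 and 1.86. At 12 h the list medians were 1.74 and 1.28, and at T0 they were -0.07 and -0.19. Of 10 measured CA3 genes 4 were lower in CA1 in both pairs and 1 higher, against 20.8% and 22.4% of all genes. Their median was -0.52 in replicate 1 and -0.03 in replicate 2. Grik4, a kainate receptor subunit concentrated in CA3, had 5.37 and 6.09 in CA1 against 5.96 and 7.18 in CA3 (-0.84 ± 0.30). Nnat and Chgb, given above, stand in this list too and are also genes of neurons in general. CA2 genes were lower in both pairs for 3 of 8 and higher for 1, and dentate granule genes for 3 of 7 and 1. Fzd2, a Wnt receptor, was not among these markers. It had 7.09 and 7.35 in CA1 against 5.88 and 6.68 in CA3 (0.94 ± 0.27), and was higher in CA1 in all 8 pairs. Like Wfs1, it was among the genes named for their difference over all times, so the count of pairs is a description.

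The immediate early genes, which neurons and glia transcribe within minutes of a stimulus, had list medians below 0 in both pairs of 3 h and above 0 in the other 6 pairs. Of 38 measured members 16 (42.1%) were lower in CA1 in both pairs and 5 (13.2%) higher, against 20.8% and 22.4% of all genes. The list median was -0.37 in replicate 1 and -0.05 in replicate 2. The median was 0.10 and 0.01 at T0, 0.77 and 0.16 at 30 min, and 0.24 and 0.22 at 12 h. Fos, a subunit of the AP-1 transcription factor, had 8.83 and 9.71 in CA1 against 10.05 and 10.93 in CA3, without overlap (-1.22 ± 0.34, limma adjusted p = 0.845). Its difference was between -0.66 and 1.01 in the other 6 pairs. A dimmer probe set of Fos gave 0.10 at 3 h, so this rests on the brighter one, whose difference became -0.79 with the GAPDH covariate. Egr4, a zinc finger factor chosen after its values were seen, had 4.55 and 6.58 in CA1 against 5.41 and 7.87 in CA3 (-1.07 ± 0.27), Dusp5, a nuclear phosphatase of ERK, 6.26 and 6.27 against 6.95 and 7.81, and Nr4a3, an orphan nuclear receptor, 5.44 and 6.27 against 6.22 and 8.23. A dimmer probe set of Egr4 differed by -0.28 and 0.24. Egr1 differed by -0.55 and -0.70. Klf6, a Krüppel-like factor, was the other way, 8.55 and 8.37 in CA1 against 7.47 and 7.92 in CA3, and was higher in CA1 in all 8 pairs. Homer1, whose short form is induced by activity, differed by -4.27 and -0.87, while its 4 other probe sets gave -0.62 to 0.06. The synaptic list was also lower in CA1 in these pairs, and its part in this difference was not tested.

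Whether the 3 h difference departed from the mean of the other 3 times was tested for every probe set, and none passed. The smallest limma adjusted p rounded to 1, 0 of 15866 probe sets had an adjusted p under 0.05, and 385 (2.43%) had an unadjusted p under 0.05. The 4 smallest p-values in the lower direction, among genes above the median level of 5.93, belonged to Dusp1, Rsrc2, Nktr and Ier2. Dusp1, a phosphatase that switches off MAP kinases, differed at 3 h by -0.35 and -0.83, against 0.09 and 0.42 at T0, 0.49 and 0.57 at 30 min, and 0.81 and 0.75 at 12 h. Its departure from the other times was -1.11 ± 0.23, though a second probe set of Dusp1 differed by 0.06 at 3 h. Ier2, a nuclear immediate early protein, differed by -0.18 and -1.03 at 3 h against 0.29 to 1.53 at the other times, a departure of -1.41 ± 0.31. Both genes were lower in CA1 in both pairs of 3 h and higher in all 6 others, as 18 genes (0.173%) were, while 25 (0.24%) showed the reverse. Rsrc2, a splicing-related protein, differed by -0.98 and -0.74 at 3 h (departure -1.01 ± 0.21), and Nktr, a cyclophilin with a splicing-type domain, by -1.03 and -0.60 (departure -1.11 ± 0.24). In the higher direction they belonged to Tekt1, a tubulin-associated protein of cilia (departure 1.11 ± 0.28), Ext1, Pick1, a scaffold that binds AMPA receptors (0.95 ± 0.26), and Xab2, a factor of transcription-coupled DNA repair (1.09 ± 0.31). Tekt1 differed by 1.59 and 0.66 at 3 h and by -0.39 to 0.37 in the other pairs. Its mean over all 16 arrays was 5.77, so it passed the level limit only through the CA1 arrays of 3 h.

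**Figure D5:**
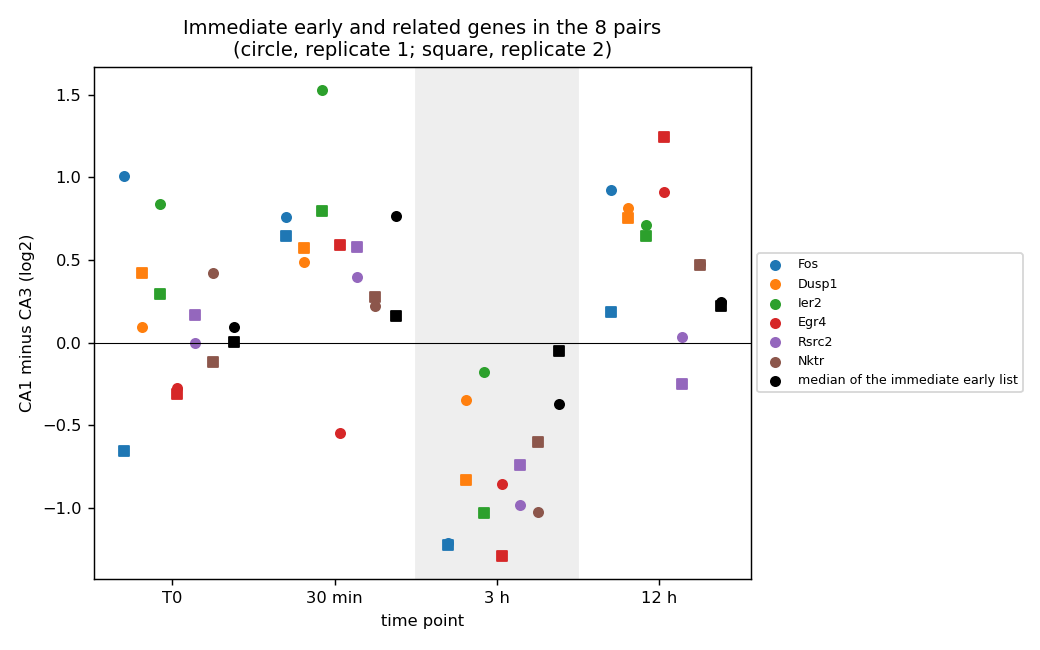
CA1 minus CA3 differences (log2) of 4 immediate early genes, of Rsrc2 and Nktr and of the median of the immediate early list (black) in the 8 pairs, by time point, with 3 h shaded. Fos, Dusp1 and Ier2 lie below 0 in both pairs of 3 h (Fos -1.21 and -1.23), whereas Dusp1 and Ier2 lie above 0 in all 6 other pairs.

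Dusp1 and Ier2 are shown with the sequence before their transcription start because of their field difference. Among the genes named by the rules, theirs had one sign at 3 h and the other in every other pair. The windows of both hold a cAMP response element, the site of the CREB factors. The element was searched as the letters TGACGTCA, which read the same on both strands, in the 250 bases before the start. The stretches are from RefSeq, build GRCr8, and give the 150 bases before the start on the forward strand, chr10:17184703-17184852 for Dusp1 and chr19:40399223-40399372 for Ier2, with the element in capitals.
Dusp1: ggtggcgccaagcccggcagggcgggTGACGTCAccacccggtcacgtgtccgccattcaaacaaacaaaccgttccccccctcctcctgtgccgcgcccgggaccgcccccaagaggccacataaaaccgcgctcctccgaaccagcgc
Ier2: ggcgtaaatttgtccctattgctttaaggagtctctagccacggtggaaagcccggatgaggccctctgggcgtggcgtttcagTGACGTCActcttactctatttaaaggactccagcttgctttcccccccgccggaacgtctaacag
The element begins 124 bases before the start in Dusp1 and 66 bases before it in Ier2. Of the 38 measured immediate early genes 28 matched the promoter table, and 4 (14.3%) held the element there: Dusp1, Ier2, Jund and Plk2. It stood in 531 of all 33469 promoters (1.59%) and in 235 of the 8630 measured genes that matched (2.72%). Jund, whose window also holds it, differed by 0.38 and 0.37 at 3 h, the opposite side. Plk2 differed by -2.10 and -0.315 at 3 h, the same side as Dusp1 and Ier2. A match of letters is a description of the sequence and shows no binding.

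The stress lists named by the study's subject showed no common side at 3 h, and none of their members passed. Of 22 measured NRF2 targets 4 (18.2%) were higher and 3 (13.6%) lower in both pairs, with a median of -0.04. Over all genes 22.4% were higher and 20.8% lower in both. Srxn1, which reduces over-oxidised peroxiredoxins, had 9.22 and 9.25 in CA1 against 9.89 and 9.54 in CA3, without overlap (-0.48 ± 0.27). Gsta4, a glutathione transferase for lipid peroxidation products, had 9.72 and 8.92 against 8.61 and 8.77 (0.63 ± 0.30), also without overlap but with most of the difference in replicate 1. Of 26 measured antioxidant genes 5 were higher and 5 lower in both, with a median of 0.04. The metallothionein genes Mt3 (0.49 and 0.44) and Mt2A (1.21 and 0.39) lay higher in CA1 in both pairs, and Gpx3, the secreted glutathione peroxidase, lay lower (-1.21 and -0.29). Of 31 measured genes of the unfolded protein and integrated stress responses 5 were higher and 7 lower in both, with a median of 0.01. Chac1, a glutathione-degrading target of ATF4, differed by -0.91 and -0.36, without overlap (-0.64 ± 0.25), while Creld2, a chaperone of the endoplasmic reticulum, had 8.20 and 7.78 against 7.75 and 7.40 (0.41 ± 0.24). Heat shock genes (19 measured) had medians of 0.31 in replicate 1 and -0.29 in replicate 2, and only Cryab, a small heat shock protein that oligodendrocytes also make, was lower by more than 0.3 in each pair (-0.89 and -0.36).

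Cell death genes of the Bcl2 family differed little. Of 24 measured members 7 were higher and 3 lower in both pairs and 14 had opposite signs, against 22.4%, 20.8% and 56.8% of all genes. In 7 both CA1 arrays lay above both CA3 arrays, where 9.91% of all genes did. The sizes were small: Bcl2, the founding survival protein, had 5.50 and 5.54 in CA1 against 5.26 and 5.25 in CA3 (0.26 ± 0.19, limma adjusted p = 0.942), and the list median was 0.05, or -0.04 among members above the median level. Bnip3, a mitophagy receptor induced by low oxygen, differed by -0.08 and -0.88. Among cytokines and chemokines 8 of 31 were higher and 10 lower in both pairs. Icam1, an adhesion molecule, differed by 1.10 and 0.61, whereas the cytokine gene Il33, known from oligodendrocytes and astrocytes, had 6.84 and 5.66 in CA1 against 7.68 and 6.08 in CA3 and was lower in all 8 pairs.

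Genes of energy supply and protein synthesis lay near the median of all genes. Of 50 measured genes of the respiratory chain 12 (24%) were lower and 1 (2%) higher in both pairs, with a median of only -0.03. Over all genes 20.8% were lower and 22.4% higher in both. Of 28 ribosomal protein genes 11 were higher and 2 lower in both, with a median of 0.03. Glycolysis genes had medians of 0.46 in replicate 1 and -0.21 in replicate 2. Slc16a1, a lactate transporter of glia and vessels, had 8.53 and 7.83 in CA1 against 7.38 and 7.44 in CA3, without overlap (0.77 ± 0.27), and was higher in CA1 in all 8 pairs. Of the 9 measured sodium pump genes 4 were higher and 1 lower in both pairs, with a median of 0.21. Fxyd2, a regulatory subunit of the pump, had 5.57 and 5.51 in CA1 against 5.05 and 4.44 in CA3, without overlap. The remaining lists, on glutamate and GABA receptors, cell cycle, Wnt signalling, axon guidance, matrix, growth factors and RGS proteins, had medians between -0.10 and 0.08. Among members above the median level the GABA receptor median was -0.95 and the cell cycle median -0.03. No member of any of the 38 lists passed the test.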

How the data were processed

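RNA from CA1 and CA3 of rat slice cultures was labelled with biotin in 2 cycles and hybridised to 16 Affymetrix arrays. Per the submitters' processing notes the authors used RMA to make the deposited log2 expression values. Neither its version nor its settings appear in the sources used here. RMA gives all arrays one distribution of probe signals, so a change in total mRNA cannot be seen. Depth does not apply to arrays, and their number limits the precision.

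Of 15923 probe sets 57 controls were left out. The platform annotation named 1 gene for 12783 of the remaining 15866, several for 312 and none for 2771, and each of the 10411 genes was represented by its probe set with the highest mean. Of the named probe sets 12748 matched RefSeq (GRCr8), which changed 0 symbols.

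A limma model (3.58.1, R 4.3.3) of the CA1 minus CA3 differences of the 8 pairs had a mean for each time. This leaves 4 residual degrees of freedom. The p-values were adjusted by Benjamini-Hochberg over all probe sets, with a threshold of 0.05, and errors after ± are moderated SE. Same-numbered arrays deviated from their group means together (r from 0.568 at T0 to 0.668 at 30 min, with 0.580 at 3 h), which is why they were paired.

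Named were the 12 genes in each direction with the largest smaller-of-2 pair difference above the median level of 5.93, the 4 smallest p-values in each direction for the departure of 3 h from the other times, the leading member of each list, 10 genes that differed between the fields in an average over the times, and the 4 genes with the largest difference in replicate 1 and an opposite one in replicate 2. Further list members were chosen after their values were seen. The 38 lists (741 of 911 genes measured), the members and the rules were chosen with earlier results of these data known. A list was described by counts and medians, not tested. Alternatives were no replicate block, cyclic loess, a filter on low values, an intensity trend, a GAPDH covariate, the mean of a gene's probe sets, the 3 h pairs alone, and leaving out each replicate.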

Additional observations from a re-analysis of the deposited data

Results flagged for a closer look

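Dusp1 and Ier2 were lower in CA1 in both pairs of 3 h and higher in CA1 in all 6 other pairs. The 3 h difference minus the mean of the other times was -1.11 for Dusp1 and -1.41 for Ier2. In limma's test of this departure over all probe sets neither passed, with an adjusted p that rounded to 1 for each. The pattern was shared by 18 of 10411 genes (0.173%), and its reverse by 25 (0.24%).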

How the results depend on the processing

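No probe set passed in the paired fit or in any alternative over all times: without the replicate block 0 passed (249 at an unadjusted p under 0.05), and likewise 0 with cyclic loess (1139), the filter above the median level (498), the intensity trend (708) and the GAPDH covariate (814). Leaving out each replicate in turn also gave 0 each time in limma's test, with 842 probe sets at an unadjusted p under 0.05 without replicate 1 of 3 h and 2212 without replicate 2. The 3 h pairs alone gave 68. For the departure from the other times 0 passed in all 12 alternatives. Leaving out a replicate of 3 h turned the sign of Fibcd1 (-0.52 to 1.80), Mpped1 (-0.67 to 1.86), Clu (-0.51 to 3.38), Mid1ip1 (-0.68 to 2.59), Thrsp (-0.17 to 2.57) and Il6 (-2.44 to 0.074), because their pairs oppose. It moved the list medians of CA2 (-0.18 to -0.14), CA3 (-0.52 to -0.032), dentate (-0.35 to -0.15), precursor (-0.16 to 0.034), ependymal (-0.020 to 0.067), AMPA (-0.20 to 0.20), NMDA (-0.13 to 0.10), GABA (-0.13 to 0.049), synaptic (-0.71 to -0.43), Wnt (-0.037 to -0.010), matrix (-0.078 to 0.022), ribosomal (0.033 to 0.088), sodium pump (0.25 to 0.26) and growth factor genes (-0.092 to -0.00028). The filter on low values moved the dentate median to -0.37, ependymal to 0.13, cell cycle to -0.030, Bcl2 family to -0.044, GABA to -0.95, neuropeptide to -0.37 and Wnt to -0.055, with fewer genes in each. Cyclic loess moved Wnt to 0.022, ribosomal to 0.10 and sodium pump to 0.17, and the mean of all probe sets moved cell cycle to 0.071 and synaptic to -0.51; the cause was not tested. The other 162 list values moved by no more than the SD of the 2 pair medians, which is a wide bar where these oppose. In 22 of the 38 lists the 2 pair medians had opposite signs, so leaving out a replicate turned the sign. Such lists included CA1 pyramidal (-0.55 to 0.60), microglia (-0.11 to 0.65) and fibroblast genes (-0.80 to 0.11). Others were heat shock (-0.29 to 0.31), glycolysis (-0.21 to 0.46) and respiratory chain genes (-0.20 to 0.14). Among the values of named genes 1000 kept their direction and side of the threshold, and 21 passed in the fit on the 3 h pairs alone, which calls by size since all probe sets share one variance. The GAPDH covariate moved C3 from 1.51 to 0.85, Anxa3 from 0.80 to 0.35, Fos from -1.22 to -0.79, Clu from 1.44 to 0.77, Mid1ip1 from 0.96 to 0.095, Il6 from -1.18 to -0.49, Fibcd1 from 0.64 to 1.28 and Mpped1 from 0.59 to 1.39. Among the 12 genes named for a lower level in CA1 in both pairs, this covariate made the differences of Dnajc6, Vsnl1 and Apod smaller. It made those of the other genes larger, with Cacna2d3, Nptx1, Nnat, Rab6b and Nefl among them. Other background corrections were not run, since the values were already summarised.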
